A study of Rattus norvegicus with 6 samples.

Results

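The genes described here are 10 regulators and markers of epithelial to mesenchymal transition in rat mammary tumors, taken from the count table by gene symbol. They comprise 7 transcription factors (Twist1, Twist2, Snai1, Snai2, Zeb1, Zeb2 and Prrx1) and 3 markers (Vim, Cdh2 and Fn1), and each of the 10 symbols stood on a single row among the 26195 named rows of the read count table. The libraries were bulk RNA-seq of 6 tumors from F344 rats, with 3 tumors from older rats (tumor IDs 102, 107 and 116) and 3 from younger rats (157, 158 and 167). Older rats received the carcinogen at 21 to 23 months of age and younger rats at 4 months. Both groups carried a subcutaneous 50 mg MPA pellet (medroxyprogesterone acetate, a progestin, released over 90 days) and took a single oral dose of DMBA, 65 mg/kg in sesame oil, so no library came from an untreated gland. The younger tumors were all that this group developed, and the paper counts 3 carcinomas in younger rats. Older rats had both carcinomas and fibroepithelial lesions in the paper. The older tumors used here were chosen for having tissue enough, and the labels do not say whether a given one was a carcinoma. Each tumor gave 1 library of whole tissue, and p-values therefore measure the spread between these 6 samples.

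During mesenchymal transition, epithelial cells lose E-cadherin junctions and gain motility. The Snail, Zeb and Twist proteins bind E-box sequences in DNA and repress epithelial genes, and Prrx1 is a homeobox factor of mesenchyme. Vimentin, N-cadherin and fibronectin are the classic markers of the mesenchymal state. In mammary tumors the same genes are also transcribed by cells that were never epithelial: fibroblasts express Vim, Fn1, Prrx1 and the Twist genes, macrophages express Vim and Zeb2, and basal cells of the gland express Snai2. In bulk tissue, fewer cells of a type and less RNA per cell cannot be told apart.

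RefSeq (build GRCr8) gave the upstream sequence of 7 of the 10 genes. The E-box that Snail and Zeb proteins prefer, CAGGTG, was searched on both strands (CACCTG on the other) in the 250 bases before each start. It was found in 2 of the 7, Zeb1 and Snai1, and in 15.9% of all 33469 promoters of this table. These 2 are shown because the motif of the factors' own family lies in them, and Twist1 is shown as the member with the largest difference between age groups. Capitals mark the E-box, which begins 95 bases before the start in Zeb1 and 142 bases before it in Snai1. The windows are chr17:56810654-56810903 on the minus strand for Zeb1, chr3:176667226-176667475 on the plus strand for Snai1 and chr6:56402059-56402308 on the plus strand for Twist1.
Zeb1: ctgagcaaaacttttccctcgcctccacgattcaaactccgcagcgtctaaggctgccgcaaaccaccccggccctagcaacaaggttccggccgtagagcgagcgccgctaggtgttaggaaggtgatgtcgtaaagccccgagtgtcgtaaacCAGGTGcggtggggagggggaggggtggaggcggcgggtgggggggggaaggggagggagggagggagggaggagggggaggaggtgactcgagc
Snai1: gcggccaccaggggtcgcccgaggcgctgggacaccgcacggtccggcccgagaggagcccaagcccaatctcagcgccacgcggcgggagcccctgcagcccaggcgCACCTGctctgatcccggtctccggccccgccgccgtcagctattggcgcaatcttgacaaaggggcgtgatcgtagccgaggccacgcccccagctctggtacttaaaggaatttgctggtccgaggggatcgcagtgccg
Twist1: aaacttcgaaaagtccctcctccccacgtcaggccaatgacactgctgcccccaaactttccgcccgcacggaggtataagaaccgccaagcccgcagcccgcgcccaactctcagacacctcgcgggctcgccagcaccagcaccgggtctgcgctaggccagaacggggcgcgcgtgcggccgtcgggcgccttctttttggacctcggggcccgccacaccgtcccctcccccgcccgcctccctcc

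The Snai1 and Twist1 windows are rich in G and C, at 69.6% and 69.2%, against a median of 51.2% over all promoters of the table. Of the 7 windows, 5 lay above that median, and the lowest were those of Prrx1 at 43.2% and Zeb2 at 47.6%. The motif is a description of the letters, and no binding was measured in these tumors.

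Counts in rows with a gene name summed to between 3394451 and 6383983 per library. Levels are given as CPM, a count relative to the size of its library after edgeR's TMM scaling, and the floor of 3 counts lay between 0.53 and 1.03 CPM. The floor covers counting error only, as does the Poisson interval given for Twist1. Enough counts for testing were present for 9 of the 10 genes, with Twist2 left out by the filter on low counts. In edgeR's quasi-likelihood test, 0 of these 9 genes differed between older and younger tumors at an adjusted p under 0.05, as did 0% of all 13139 genes tested. The smallest adjusted p over all genes was 0.176. At an unadjusted p under 0.05 there was 1 member, Twist1, beside 8.59% of all genes tested in either direction and 3.29% in the direction of lower values in older tumors. DESeq2 called 0 of the members, beside 2.62% of the genes to which it gave an adjusted p, and it gave Twist2 none. Limma-voom called 0 of the 9. By sign alone, 5 of the 9 tested members were higher and 4 lower in older tumors, with a median log2 fold change of 0.03, while the median over all genes tested was 0. CPM values are compared here between tumors for the same gene only, because transcript lengths were not used.

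**Figure D1:**
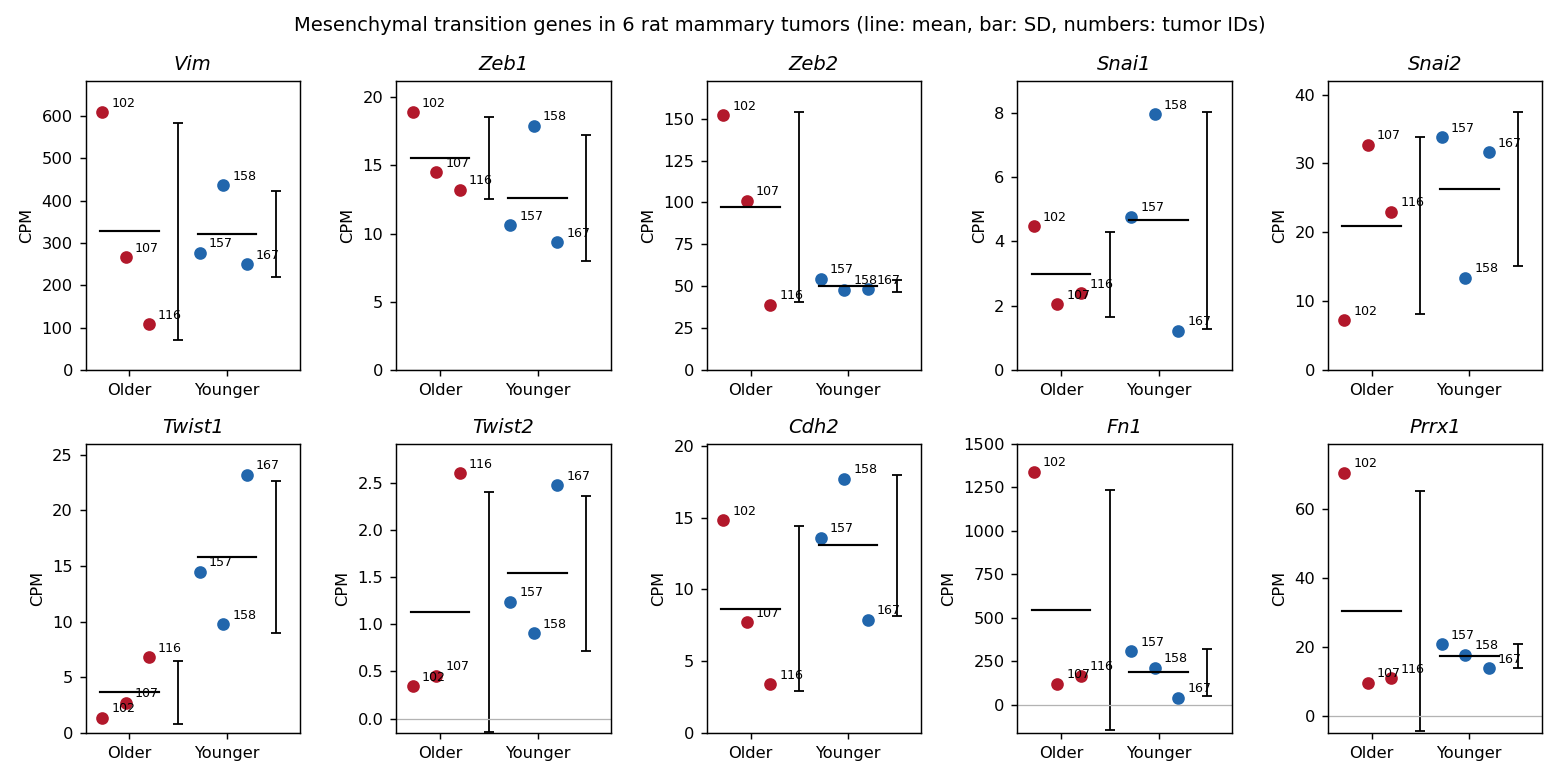
CPM of the 10 genes (y axes, linear, a different range for each gene) in 3 older (red) and 3 younger (blue) tumors, with each point labelled by its tumor ID, the mean as a line and the SD as a bar, which reaches below 0 where the SD exceeds the mean. Twist1 is the gene whose age groups do not overlap, with a highest older value of 6.81 CPM and a lowest younger value of 9.77 CPM, and the Fn1 value of tumor 102, 1340 CPM, stands far above the other 5.

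Twist1 encodes a basic helix-loop-helix factor that represses Cdh1. Its level was 1.38, 2.73 and 6.81 CPM in older tumors 102, 107 and 116, from 4, 12 and 34 counts. In younger tumors 157, 158 and 167 it was 14.5, 9.77 and 23.2 CPM, from 82, 54 and 94 counts. Every younger tumor lay above every older one, whereas the genes without overlap in this direction made up 5.58% of all genes tested and those in the other direction 6.51%. The mean was 3.64 ± 2.83 CPM (SD, n = 3) in the older group, against 15.8 ± 6.82 CPM (SD, n = 3) in the younger. The difference on the log2 scale was -2.07 (SE, SE, 0.62, 95% interval -3.52 to -0.62, edgeR), a level 4.2-fold lower in older tumors, with an unadjusted p of 0.0113 and an adjusted p of 0.372. DESeq2 gave an adjusted p of 0.0543 with a log2 fold change of -2.09. The groups also stayed apart with library totals as the scaling, at 7.64 against 8.46 CPM for the nearest pair of tumors, 116 and 158. Without tumor 102, whose 4 counts have an exact Poisson interval of 1.09 to 10.2, the log2 fold change was -1.71.

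Twist2 (Dermo1), the close relative of Twist1, was near the floor. Older tumors 102, 107 and 116 held 1, 2 and 13 counts, and younger tumors 157, 158 and 167 held 7, 5 and 10. Tumors 102 and 107 were lowest for both Twist genes, but tumor 116 had the highest Twist2 value of all, 2.6 CPM, and so the groups overlapped. Tested among all genes with a count, Twist2 had a log2 fold change of -0.36 (SE 0.94, adjusted p = 0.948, edgeR), and a difference was not detectable at this depth. Reads from stretches that the Twist genes share could be assigned to either or to neither, and how such reads were counted is not given in the sources used here.

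Snai1 (Snail) and Snai2 (Slug) are zinc finger repressors of Cdh1. Snai1 was low throughout, at 4.48, 2.05 and 2.4 CPM in older tumors 102, 107 and 116 and at 4.77, 7.96 and 1.23 CPM in younger tumors 157, 158 and 167. The younger group contained both the highest tumor, 158 with 44 counts, and the lowest, 167 with 5 counts. Snai1 differed by -0.69 on the log2 scale (SE 0.70, 95% interval -2.31 to 0.94, adjusted p = 0.887, edgeR). With 1 tumor left out, the value ranged from -1.12 without tumor 167 to -0.06 without tumor 158. Snai2 was 7.23, 32.7 and 23 CPM in the older tumors and 33.8, 13.4 and 31.6 CPM in the younger ones. Its lowest values came from a tumor of each age, 102 and 158, and the remaining 4 tumors spanned 23 to 33.8 CPM. For Snai2 the log2 fold change was -0.31 (SE 0.57, 95% interval -1.64 to 1.01, adjusted p = 0.942, edgeR).

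Zeb1 and Zeb2 are zinc finger homeobox repressors of epithelial genes. Zeb1 was the steadiest member, at 18.9, 14.5 and 13.2 CPM in older tumors and 10.6, 17.9 and 9.38 CPM in younger ones. Its highest value exceeded its lowest by 2.02-fold, and the log2 fold change was 0.29 (SE 0.37, 95% interval -0.56 to 1.15, adjusted p = 0.91, edgeR). Zeb2 was 152, 101 and 39.0 CPM in older tumors 102, 107 and 116 and 54.5, 47.9 and 48.4 CPM in the younger tumors. The younger values lay close together, with an SD of 3.64 CPM, while the older group held the 2 highest tumors and the lowest. For Zeb2 the log2 fold change was 0.95 (SE 0.45, 95% interval -0.09 to 1.99, adjusted p = 0.636, edgeR). It was 0.47 without tumor 102 and 1.32 without tumor 116. The edgeR fit without tumor 116 gave Zeb2 an unadjusted p of 0.00264 and an adjusted p of 0.195. In that fit 2 members, Zeb2 and Twist1, had an unadjusted p under 0.05, beside 1439 of 13564 genes.

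Prrx1, a homeobox factor of limb and connective tissue mesenchyme, was 70.6 CPM in tumor 102 and 9.55 and 10.8 CPM in older tumors 107 and 116. Younger tumors 157, 158 and 167 had 20.7, 17.7 and 13.8 CPM. The older tumors thus included the highest level and the 2 lowest, with the younger tumors between them. Its log2 fold change of 0.78 (SE 0.75, 95% interval -0.97 to 2.53, adjusted p = 0.878, edgeR) became -0.78 without tumor 102, with an unadjusted p of 0.0589 and an adjusted p of 0.722 in that edgeR fit.

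Among the markers, Vim encodes vimentin, the intermediate filament of mesenchymal cells and leukocytes. Vim was 609, 267 and 108 CPM in older tumors 102, 107 and 116 and 277, 437 and 250 CPM in younger tumors 157, 158 and 167. The older tumors held both extremes, 5.66-fold apart. The older tumors averaged 328 ± 256 CPM (SD, n = 3), the younger ones 321 ± 101 CPM (SD, n = 3), and the log2 fold change was 0.03 (SE 0.58, 95% interval -1.32 to 1.38, adjusted p = 0.995, edgeR). Its sign depended on the setting, since the value was -0.10 with library totals and -0.79 without tumor 102.

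Cdh2 encodes N-cadherin, which replaces E-cadherin in the cadherin switch of mesenchymal transition. It was 14.8, 7.73 and 3.4 CPM in the older tumors and 13.6, 17.7 and 7.9 CPM in the younger ones, from at most 98 counts. Tumor 116 was lowest for Cdh2, as it was for Vim. The log2 fold change was -0.62 (SE 0.58, 95% interval -1.96 to 0.72, adjusted p = 0.873, edgeR), and it was -1.25 without tumor 102 and -0.24 without tumor 116.

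Fn1 encodes fibronectin, a glycoprotein of the extracellular matrix. It was 1340 CPM in tumor 102, from 3884 counts, against 122 and 168 CPM in older tumors 107 and 116. Younger tumors had 308, 213 and 41 CPM, so the highest and lowest tumors differed 32.6-fold, the widest span of the 10 genes. Only 1.43% of all genes tested had a larger spread within the age groups, by the SD of log2 CPM. Its log2 fold change of 1.53 (SE 1.03, 95% interval -0.87 to 3.93, adjusted p = 0.794, edgeR) turned to -0.37 without tumor 102.

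**Figure D2:**
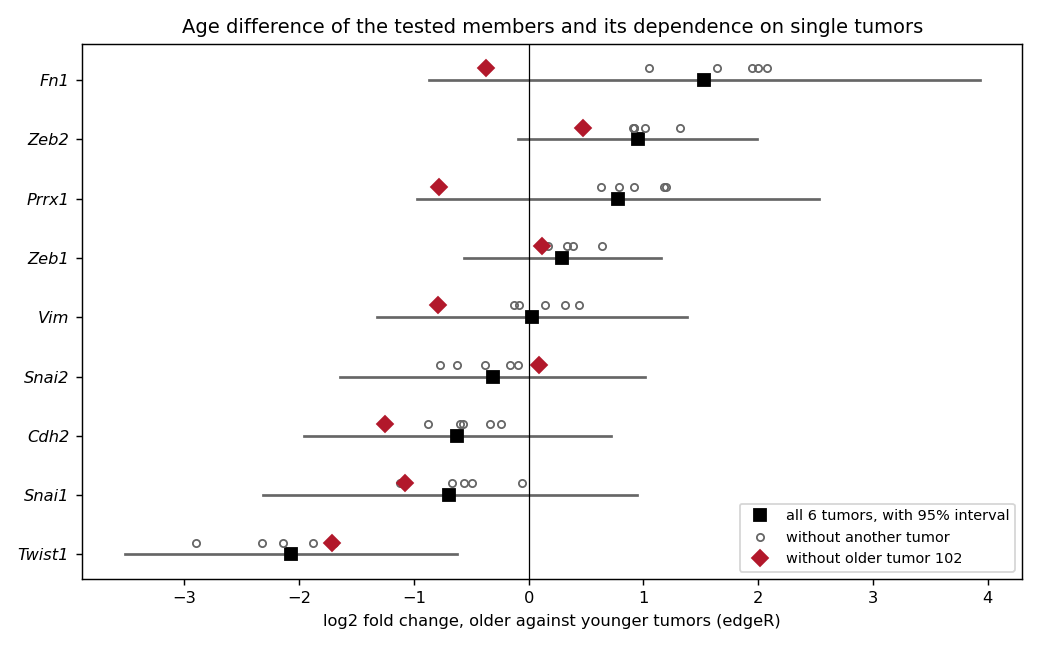
Log2 fold change of the 9 tested genes, older against younger tumors (x axis, edgeR), with its 95% interval as a line, and the same value after leaving out older tumor 102 (red diamonds) or another tumor (open circles). The interval of Twist1 (-3.52 to -0.62) is the one that does not reach 0, and the values of Fn1, Prrx1, Vim and Snai2 change sign without tumor 102.

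Most of the highest and lowest values fell on a few tumors. Tumor 102 was highest for 5 of the 10 genes (Vim, Zeb1, Zeb2, Fn1 and Prrx1) and lowest for 3 (Snai2, Twist1 and Twist2). Tumor 116 was lowest for Vim, Zeb2 and Cdh2, and tumor 167 was lowest for Zeb1, Snai1 and Fn1 while highest for Twist1. Likeness between genes was measured as the root mean square difference of log2 CPM over the 6 tumors, each gene centred on its own mean. Vim and Cdh2 were the most alike pair of tested members, at 0.323 log2 units, and Twist1 and Fn1 the least alike, at 2.55. In tumor 102, Fn1 stood 2.70 log2 units above its mean and Twist1 at -2.01 from its own, whereas in tumor 167 Fn1 was at -2.31 and Twist1 at 1.70. Fn1 and Twist1 thus lay on opposite sides of their means in both tumors. Without tumor 102, 0 of 10 members tested passed the threshold with edgeR, and 1 had an unadjusted p under 0.05. Of all 13541 genes tested in that fit, 0 passed and 986 had such a p. By sign, 6 of the 10 members were then lower in older tumors.

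**Figure D3:**
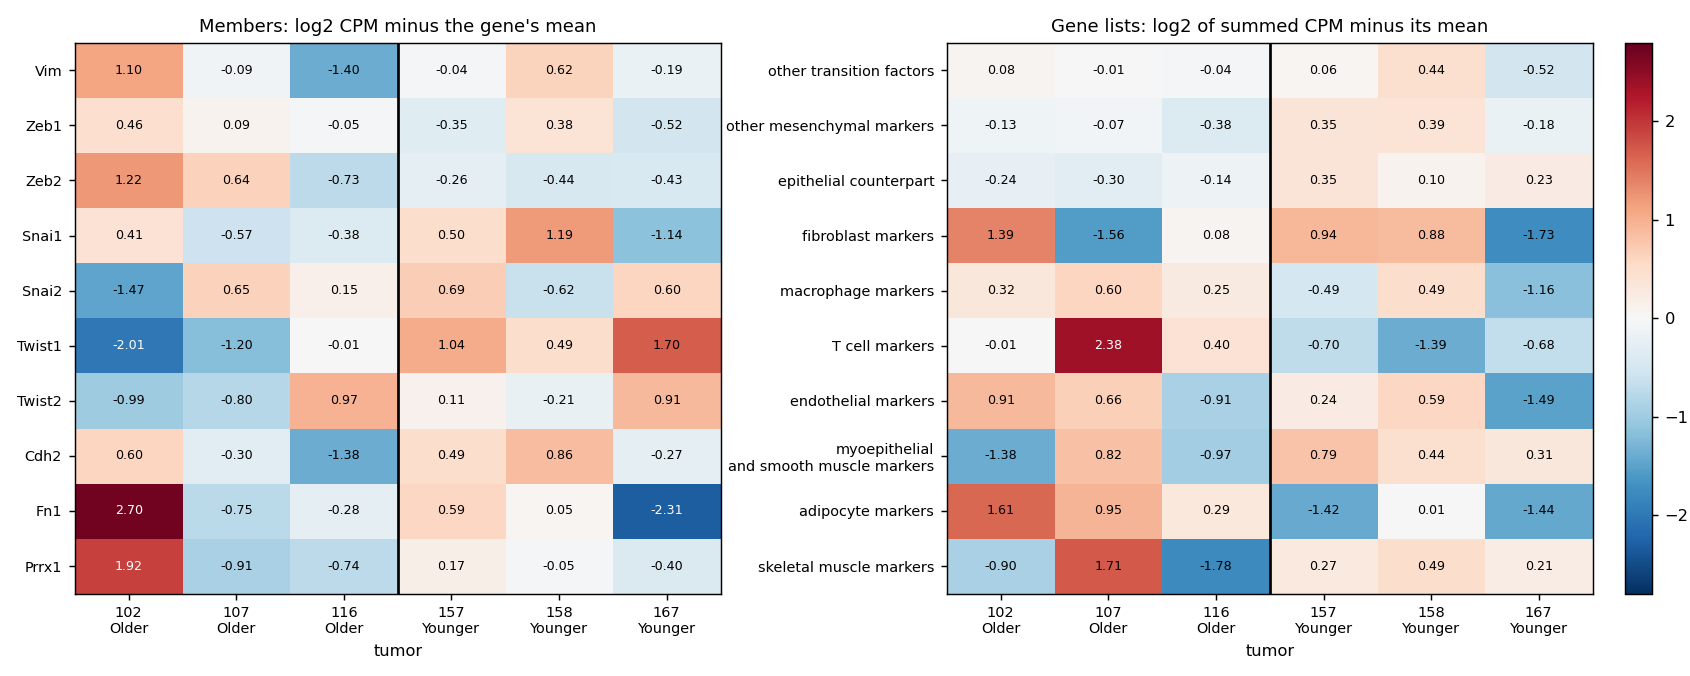
Each cell gives, for a tumor (columns, older left and younger right of the black line), the log2 CPM of a member minus that gene's mean over the 6 tumors (left) or the log2 of the summed CPM of a gene list minus its mean (right). Tumor 102 shows Fn1 at 2.70 and Prrx1 at 1.92 above their means beside fibroblast markers at 1.39, and Twist1 at -2.01.

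Markers of other cells were extreme in some of the same tumors as several of these genes, but not in all, and their part in the results was not tested. The summed level of 11 fibroblast markers was 1740, 225 and 698 CPM in older tumors 102, 107 and 116 and 1270, 1220 and 199 CPM in younger tumors 157, 158 and 167. Tumor 102 was highest for this sum and for Fn1 and Prrx1, and tumors 107 and 167 had the lowest sums and the lowest Fn1 values. Twist1 had its highest value in tumor 167, where the fibroblast sum was lowest. The 10 macrophage markers summed to 502, 608 and 477 CPM in older tumors and 287, 563 and 180 CPM in younger ones. In tumor 158, 421 CPM of this sum came from Cd14, the 1 marker lower in older tumors by sign. Zeb2 was higher in tumors 102 and 107 but not in tumor 116. For Snai2, the 7 myoepithelial and smooth muscle markers matched summed to 743, 3410 and 990 CPM in older tumors and 3340, 2630 and 2400 CPM in younger ones, so that tumor 102 was lowest in both. In tumor 158, however, the sum of 2630 CPM stood beside a low Snai2 value of 13.4 CPM. The 8 endothelial markers ranged from 126 to 446 CPM in older and from 84.4 to 356 CPM in younger tumors, and the 5 skeletal muscle markers from 5.41 to 61.1 and from 21.5 to 26.2 CPM. Age groups did not overlap for the 7 adipocyte markers, at 285 to 715 CPM in older and 86.2 to 235 CPM in younger tumors. They also stayed apart for the 7 T cell markers, at 19.3 to 101 and 7.42 to 12.1 CPM. Of the T cell sum, Cd8a gave 10.3, 74.6 and 6.81 CPM in older tumors 102, 107 and 116. In younger tumors 157, 158 and 167 it gave 4.6, 2.35 and 2.47 CPM. Cd2, Cd3d, Cd3g and Cd5 were not tested, with 0 to 24 counts per tumor. Lpl gave most of the adipocyte sum, at 519, 408 and 261 CPM in older and 63.3, 213 and 72.3 CPM in younger tumors. Of single genes tested, 4 of 10 for macrophages, 2 of 3 for T cells, 1 of 5 for adipocytes (Lpl) and 1 of 3 for skeletal muscle did not overlap. All of these were higher in older tumors, beside 6.51% of all genes in that direction. The fibroblast, endothelial and myoepithelial and smooth muscle lists had 0 such genes in either direction. None of the markers matched in these lists was at 0 in all tumors, and edgeR called 0 of the tested genes in each list. At an unadjusted p under 0.05 stood 5 of 10 macrophage, 2 of 3 T cell, 1 of 8 endothelial and 1 of 5 adipocyte genes tested, all higher in older tumors, beside 5.3% of all genes in that direction. DESeq2 called 1 gene each among the macrophage, T cell and adipocyte markers, beside 2.62% of all genes. The median log2 fold change was 0.25 for the 11 fibroblast markers tested, 1.18 for macrophages (10 tested), 1.5 for T cells (3 tested), 0.25 for endothelial cells (8 tested), -0.71 for myoepithelial and smooth muscle cells (7 tested), 1.57 for adipocytes (5 tested) and 0.39 for skeletal muscle (3 tested), beside 0 over all genes tested.

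Epithelial identity was present in every tumor, with Epcam, an epithelial adhesion molecule, at 300 to 499 CPM, and Krt8, a luminal keratin, at 100 to 337 CPM. Of 20 genes on a list of epithelial adhesion, keratin and splicing genes and the factors that oppose mesenchymal transition, 18 were matched and tested, and edgeR called 0 of them, with 1 at an unadjusted p under 0.05, lower in older tumors, beside 3.29% of all genes. By sign, 16 of the 18 were lower in older tumors, with a median log2 fold change of -0.37, where 6616 of 13139 genes were lower overall. Between 14 and 16 were lower under the other settings, the fewest without tumor 107. For 5 of the 18 genes (Epcam, Grhl2, Krt8, Cldn4 and Dsp) every older tumor lay below every younger one, beside 5.58% of all genes tested. Scaled by library totals, this held for 2 (Epcam and Cldn4), beside 4.78% of all genes. Dsp, the desmosome protein desmoplakin, was 24.4, 83.2 and 162 CPM in older tumors and 530, 174 and 412 CPM in younger ones, a log2 fold change of -2.05 (SE 0.69, adjusted p = 0.432, edgeR). The log2 fold change was -0.51 for Epcam (SE 0.24, adjusted p = 0.636, edgeR) and -0.77 for Krt8 (SE 0.37, adjusted p = 0.657, edgeR). The 2 genes with a positive value were Ocln, a tight junction protein, at 0.27 (adjusted p = 0.9, edgeR) and Ovol2, an epithelial zinc finger factor, at 0.19 (adjusted p = 0.95, edgeR). Cdh1 itself, E-cadherin, was 459, 693 and 438 CPM in older tumors and 848, 637 and 569 CPM in younger ones, with overlap between the groups and a log2 fold change of -0.37 (SE 0.31, adjusted p = 0.851, edgeR).

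Ratios of counts within a library need no scaling between libraries, and 3 of them were compared as log2 values by two-sided exact permutation tests, which cannot give a p below 0.1 with 3 tumors against 3. The Cdh2 to Cdh1 ratio, a measure of the cadherin switch, was -4.94, -6.46 and -6.96 in older tumors 102, 107 and 116 and -5.95, -5.16 and -6.15 in younger tumors 157, 158 and 167. The difference of -0.37 was smaller than the SD in either group (exact permutation test, p = 0.6, adjusted over 3 ratios 0.9). The Vim to Epcam ratio was 0.98, -0.17 and -1.70 in older tumors and -0.53, -0.11 and -1 in younger ones, a difference of 0.25 (exact permutation test, p = 0.9, adjusted 0.9). Tumor 102 was highest in both ratios and tumor 116 lowest, so that the older group spanned the younger one. Zeb1 and Grhl2, an epithelial factor, oppose each other in epithelial cells. Their ratio was -2.12, -2.38 and -2.66 in older tumors and -3.46, -2.53 and -3.38 in younger ones, and the difference of 0.74 exceeded the SDs of 0.27 and 0.51 (exact permutation test, p = 0.2, adjusted 0.6). Tumor 158 was the younger tumor that lay within the older range.

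**Figure D4:**
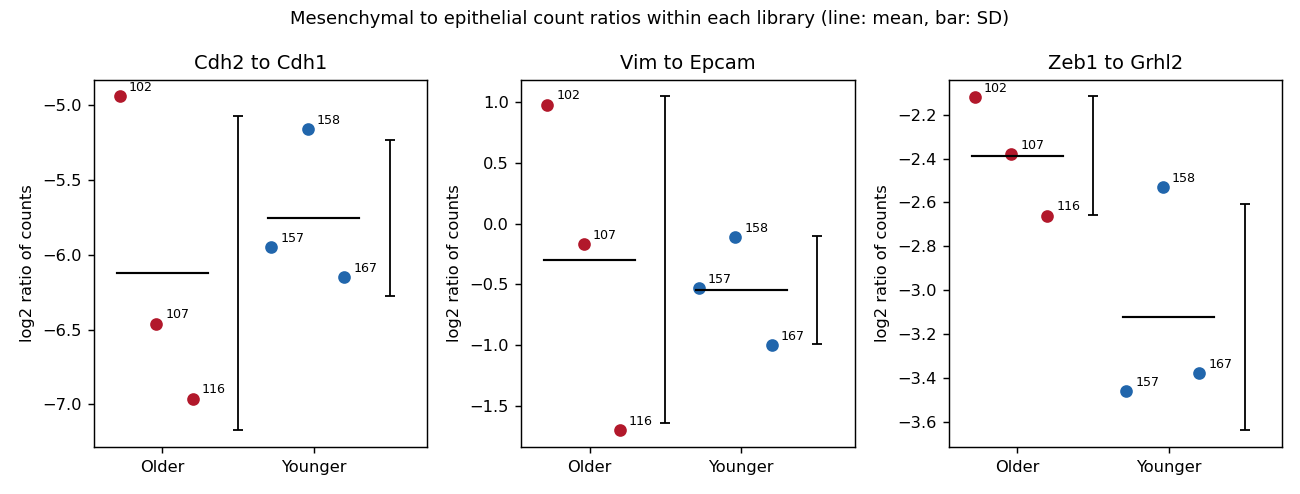
Log2 ratio of counts of a mesenchymal to an epithelial gene within each library (y axes, which do not start at 0) in older (red) and younger (blue) tumors, with tumor IDs, the mean as a line and the SD as a bar. Tumor 102 is highest in all 3 panels, at -4.94, 0.98 and -2.12, and the groups overlap in each.

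Further regulators linked to mesenchymal transition were read from a list of 18 genes, of which 17 stood on a single row and 11 were tested. EdgeR called 0, with 1 at an unadjusted p under 0.05 (Ets1, higher in older tumors, beside 5.3% of all genes), and 7 were higher and 4 lower in older tumors by sign, with a median log2 fold change of 0.26. Ets1, an ETS factor also active in lymphocytes and endothelium, was 62.0, 112 and 61.9 CPM in older tumors and 57.1, 36.5 and 40.7 CPM in younger ones, without overlap, as were 6.51% of all genes in that direction. Its log2 fold change was 0.81 (SE 0.33, adjusted p = 0.545, edgeR). Id1 and Id2, inhibitors of helix-loop-helix factors, had log2 fold changes of 0.83 (adjusted p = 0.823, edgeR) and 0.45 (adjusted p = 0.881, edgeR). In the other direction stood Yap1, the Hippo pathway coactivator, at -0.32 (adjusted p = 0.84, edgeR), and the progenitor cell factors Sox4 at -0.44 (adjusted p = 0.864, edgeR) and Sox9 at -0.39 (adjusted p = 0.918, edgeR).

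Further mesenchymal markers and effectors came from a second list of 18 genes, of which 17 were tested. EdgeR called 0 and DESeq2 called 1, Loxl2, and 3 had an unadjusted p under 0.05 in edgeR, each lower in older tumors without overlap. Over all genes, 3.29% had such a p with lower values in older tumors, 5.58% did not overlap in that direction, and DESeq2 called 2.62%. By sign, 9 were higher and 8 lower, with a median of 0. Loxl2, a lysyl oxidase that crosslinks collagen, was 34.1, 21.4 and 23.8 CPM in older tumors and 61.5, 49.2 and 64.4 CPM in younger ones. The log2 fold change of Loxl2 was -1.15 (SE 0.28, adjusted p = 0.315 with edgeR and 0.0227 with DESeq2). Sparc, a matricellular protein, had a log2 fold change of -1.09 (SE 0.40, adjusted p = 0.492, edgeR), and the hyaluronan receptor Cd44 one of -0.63 (SE 0.25, adjusted p = 0.527, edgeR). The smallest p-values in the other direction were those of Tnc (tenascin C) at 0.97 (adjusted p = 0.79, edgeR), the receptor kinase Axl at 0.48 (adjusted p = 0.851, edgeR) and Lox at 1 (SE 1.37, adjusted p = 0.918, edgeR).

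By the likeness measure given above, each tested member was set against 12944 other genes with a mean of at least 1 CPM, over 6 tumors, as a description only. Nearest to Twist1 was LOC100911253, listed as a long noncoding RNA in RefSeq, at 0.068 log2 units, followed by Grb14, an adaptor of receptor signaling, at 0.205. For Fn1 the nearest were Sema6b (0.31) and Cyp26b1, a retinoic acid hydroxylase (0.338), and for Prrx1 they were Atp1b4 (0.156) and Enc1 (0.17). Vim was closest to Fah (0.221) and Spag1 (0.224), and Cdh2 to Vtn, vitronectin (0.166), and Bcl6, a transcriptional repressor (0.196). Zeb1 was closest to Lrrc8a (0.0422) and Atrnl1 (0.0445), and Zeb2 to Mical3 (0.172) and Iffo1 (0.192). The Snail genes had Pomt1 (0.18) and Vegfc, a lymphatic growth factor (0.184), nearest to Snai1, and Fbxw17 (0.128) and P3h4 (0.149) nearest to Snai2. The distances depend on how far a gene varies at all, which was 0.356 log2 units about its own mean for Zeb1 and 1.51 for Fn1.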

How the data were processed

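Bulk RNA-seq of 6 rat mammary tumors was used. The authors depleted ribosomal RNA (the labels name polyA RNA), sequenced paired reads of 150 bases (the labels give 100), checked them with FastQC 0.11.7, trimmed with Trimmomatic 0.38, aligned with STAR 2.7.9a, marked duplicates with Picard 2.18.12 and counted with HTSeq 0.13.5. The read counts per gene were deposited without normalization, and mRatBN7.2 is named in the submitters' processing notes. Strand setting, annotation and the handling of marked duplicates are not given in the sources used here, so overlapping or antisense genes may share reads. Columns were matched to tumors by ID.

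The 4367 of 30562 rows without a gene name (2.17% to 3.64% of the counts) were left out of totals and tests. Genes were filtered with filterByExpr by age group, scaled by TMM (factors 0.861 to 1.127) and compared by the quasi-likelihood test of edgeR 4.0.16 in R 4.3.3, with p-values adjusted by Benjamini and Hochberg's method over all 13139 genes tested and a threshold of 0.05. Limma 3.58.1 (voom) and DESeq2 1.42.0 served as other tests. Standard errors and 95% intervals were derived from the F statistic and its degrees of freedom. Log2 CPM used a prior count of 2, and ratios an added 0.5 counts. The test was checked on simulated data. Alternatives were other scalings, tests and filters, an added count of 2 in the ratios, and leaving out each tumor. The members and lists were chosen with earlier results of these data known. Named genes were all members, the 3 genes of smallest p in each direction of the regulator, mesenchymal and epithelial lists, the ratio genes Cdh1, Epcam and Grhl2, and the 2 genes most like each tested member. Cell type marker lists (fibroblast, macrophage, T cell, endothelial, myoepithelial and smooth muscle, adipocyte, skeletal muscle) were described by sums and counts. Foxq1 stood on more than 1 row and was left out of its list. Gene symbols not matched were not analysed here.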

Additional observations from a re-analysis of the deposited data

How the results depend on the processing

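No paired analysis was possible because no label links an older tumor to a younger one. EdgeR called 0 members and 0 genes of the regulator, mesenchymal and epithelial lists under each scaling and filter run with it and in its 6 fits that left out a tumor. Limma-voom, run once on all tumors with TMM and the same filter, called 0 of them, and DESeq2 called 0 members. The count over all genes, 0, was 362 with DESeq2, 120 of them lower in older tumors, and that of the further mesenchymal markers, 0, was 1 (Loxl2). At least 10 counts in every tumor left 7 members tested, without Twist1 and Snai1, and 0 with an unadjusted p under 0.05, beside 884 of 11246 genes. Twist1, the 1 member with such a p in the main fit, was removed by its 4 counts in tumor 102. Of 124 values for members under alternatives, 114 kept their sign. Vim changed sign with library totals (-0.10), limma-voom (-0.24) and all genes with a count (-0.02), and Prrx1 with limma-voom (-0.02). With 1 tumor left out, Vim ranged from -0.79 to 0.44, Snai2 from -0.77 to 0.09, Fn1 from -0.37 to 2.08 and Prrx1 from -0.78 to 1.2, all lowest without tumor 102 except Snai2, which was highest without it, while Twist1 ranged from -2.9 to -1.7. The Cdh2 to Cdh1 difference ranged from -0.96 to 0.05 and changed sign without tumor 116, Vim to Epcam from -0.39 to 0.95 and changed sign without tumor 102, and Zeb1 to Grhl2 from 0.57 to 1.03. Keeping the rows without a name, an alternative chosen after seeing the data, called 0 genes. Depth limits Twist2, Snai1 and Twist1 most, with 1 to 13 counts for Twist2.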

Other observations

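Further members of these gene families were chosen after their values were seen. Of the paralogs, Snai3 had 0 to 6 counts and Prrx2 0 to 3 counts per tumor, too few to test. The hairpin genes of the Zeb-repressing microRNAs were as sparse, with Mir200b at 0 to 3, Mir429 at 0 to 4, Mir205 at 0 to 3 and Mir141 at 0 counts, and mature microRNAs were not analysed here.

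Among other cadherins, Cdh3 (P-cadherin, of basal epithelial cells) was 2.75, 23.9 and 15.2 CPM in older tumors 102, 107 and 116 and 73.7, 54.5 and 24.4 CPM in younger tumors 157, 158 and 167. The groups did not overlap, although tumors 107 and 167 nearly met, beside 5.58% of all genes tested without overlap in that direction. The log2 fold change of Cdh3 was -1.85 (SE 0.70, adjusted p = 0.504, edgeR). Cdh4 (R-cadherin) was at 36.5 CPM in tumor 158 and at 0.494 to 7.25 CPM in the other 5. Cdh13 (T-cadherin) was highest in younger tumors 157 and 158, at 73.5 and 44.9 CPM, and lowest in younger tumor 167, at 9.13 CPM. Cdh11, a cadherin of fibroblasts, had a log2 fold change of 0.06 (SE 0.59, adjusted p = 0.991, edgeR), and the endothelial Cdh5 one of -0.44 (SE 0.69, adjusted p = 0.936, edgeR).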
